A study of Mus musculus with 16 samples.

Results

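The regulators of blood clotting and clot dissolution followed here in mouse left ventricle were 9 genes: F3, Tfpi, Thbd, Procr, Pros1, Vwf, Thbs1, Plat and Plau. They were chosen by gene symbol with earlier results of these data known, and each symbol matched 1 row of a table of 57143 genes. All 9 passed the filter on low values, a mean of at least 0.5 TPM (a transcript level scaled for gene length and library size) over the 16 libraries, as did 16866 genes in all. RNA-seq was made from polyA RNA of male C57BL/6 mice after an abdominal operation under sevoflurane, a volatile anaesthetic. Hearts were taken at 4 times, called 0h, 3h, 24h and 7d, and each time is a group of 4 libraries. Every group, the 0h controls included, carries the label of abdominal surgery, so no unoperated or anaesthesia-only group enters these comparisons. Age is not given in the sources used here, nor whether the 4 libraries of a time came from separate animals. The p-values therefore measure the spread between these libraries, which may be technical.

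Clotting starts when tissue factor, encoded by F3, meets blood factor VII, and it ends in thrombin cutting fibrinogen to fibrin. Tissue factor pathway inhibitor (Tfpi) blocks that first step. Thrombomodulin (Thbd) and the endothelial protein C receptor (Procr) turn thrombin toward activating protein C, whose cofactor is protein S (Pros1). Von Willebrand factor (Vwf) tethers platelets to injured vessel walls and is stored in the Weibel-Palade bodies of endothelial cells. Thrombospondin 1 (Thbs1) is a matricellular protein of platelets and stromal cells, while tissue plasminogen activator (Plat) and urokinase (Plau) make the plasmin that dissolves fibrin. In the heart, most of these genes are known for expression in endothelium, and tissue factor also in cardiac muscle cells.

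The libraries held 8313655 to 12893551 counts. Changes were tested on raw counts with edgeR's quasi-likelihood test in 1 fit of all 16 libraries, scaled by TMM, with Benjamini-Hochberg adjustment over all 16866 genes and a threshold of 0.05. TMM sets the typical gene near 0, whereas on log2(TPM + 1) the median gene lay -0.15 lower at 3h and -0.19 at 24h than at 0h, so differences in TPM are read against those shifts. Cardiomyocyte markers summed to 58709.9 to 80168 TPM in each library, and atrial markers ranged from 256 TPM in 3h replicate 2 to 2762 TPM in 7d replicate 2. That sum did not follow its members Myl7, Myl4 and Sln, whose means were highest at 24h (89.1, 16.3 and 18.5 TPM). At 7d their means were 0.736, 1.33 and 0.0472 TPM. Among 24h libraries Myl7 ranged from 6.97 to 159 TPM. Myl7 and Myl4 passed as higher at 24h against 0h. Myl7, Myl4 and Sln passed as lower at 7d against 24h. The part of atrial RNA in the 24h changes was not tested. Neutrophil markers summed to 11.1 to 13.2 TPM at 0h and to 147 to 567 TPM at 3h.

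Levels of the 9 genes spanned more than an order of magnitude. Over the 16 libraries Thbd averaged 68.9 TPM and Tfpi 63.0 TPM, followed by F3 at 26.6, Pros1 at 24.2 and Vwf at 19.9 TPM. Plat averaged 11.3, Plau 9.74 and Thbs1 7.10 TPM. Procr was lowest at 2.35 TPM, with 7 to 30 counts per library, too few to show a small change.

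**Figure D1:**
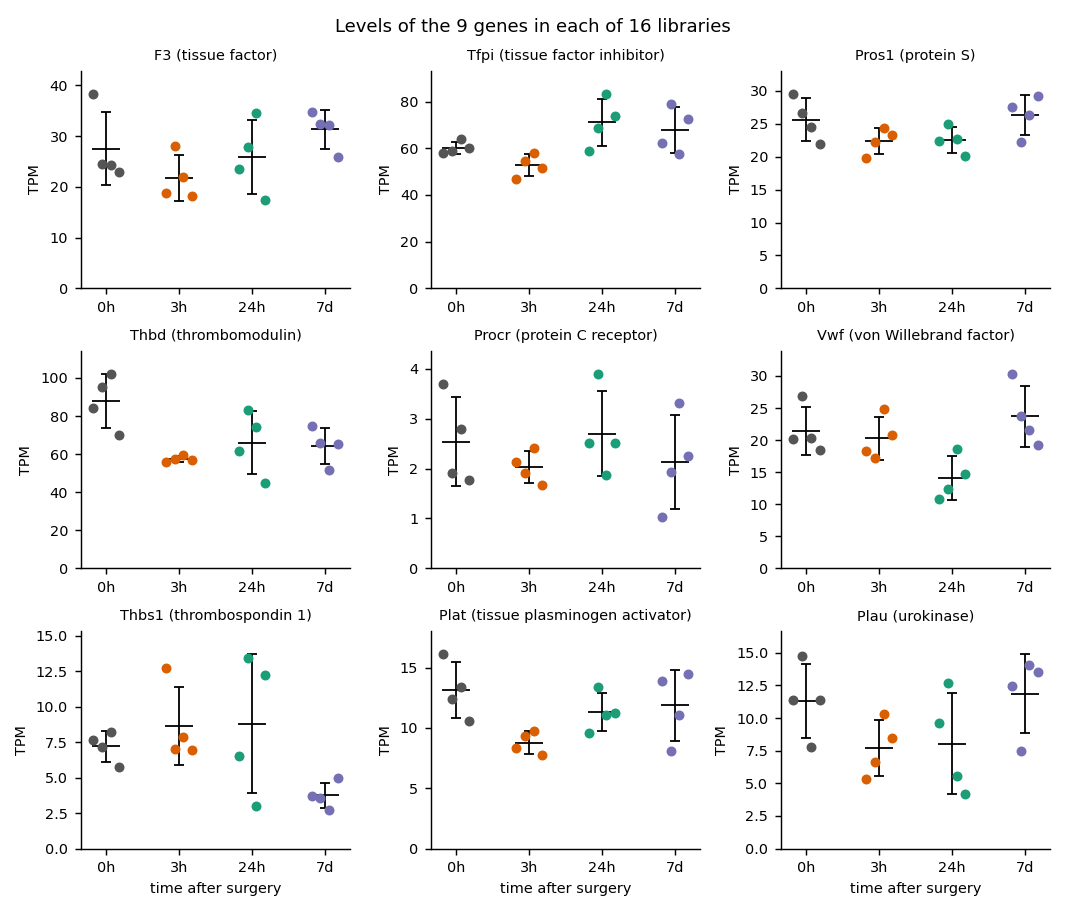
TPM of each gene (y axis, from 0) by time after surgery (x axis). Points are libraries, replicates 1 to 4 from left to right, and the bar with whiskers is the mean ± SD of 4. The 3h libraries of Thbd lie at 55.6 to 59.5 TPM, below every 0h library, and those of Vwf at 24h lie below every 7d library.

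Few of the 9 genes changed between any pair of times, and no comparison called more than 2. At 3h against 0h, Thbd fell and the other 8 did not pass the test, beside 5.04% of all genes tested. At 24h against 0h, Tfpi rose, beside 17.4% of all genes. At 7d against 0h edgeR called 0 of the 9, beside 0.86% of all genes; 2 had an unadjusted p under 0.05 (Thbd and Tfpi), and DESeq2 and limma also called 0. Between 3h and 24h Tfpi rose, beside 7.58% of all genes. From 24h to 7d Vwf rose and Thbs1 fell, beside 8.08%. At 7d against 3h edgeR called 0 of the 9, beside 4.61%; 4 had an unadjusted p under 0.05, DESeq2 called 1 (Thbs1) and limma 0. The test of any change over the 4 times called Tfpi and Vwf by edgeR, beside 20.2% of all genes, and DESeq2 called Thbd and Thbs1 as well. Counts of 0 to 2 of 9 lie near these background shares, so nothing is read from them about the genes as a group. The same 0h libraries serve as controls in 3 of these comparisons.

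**Figure D2:**
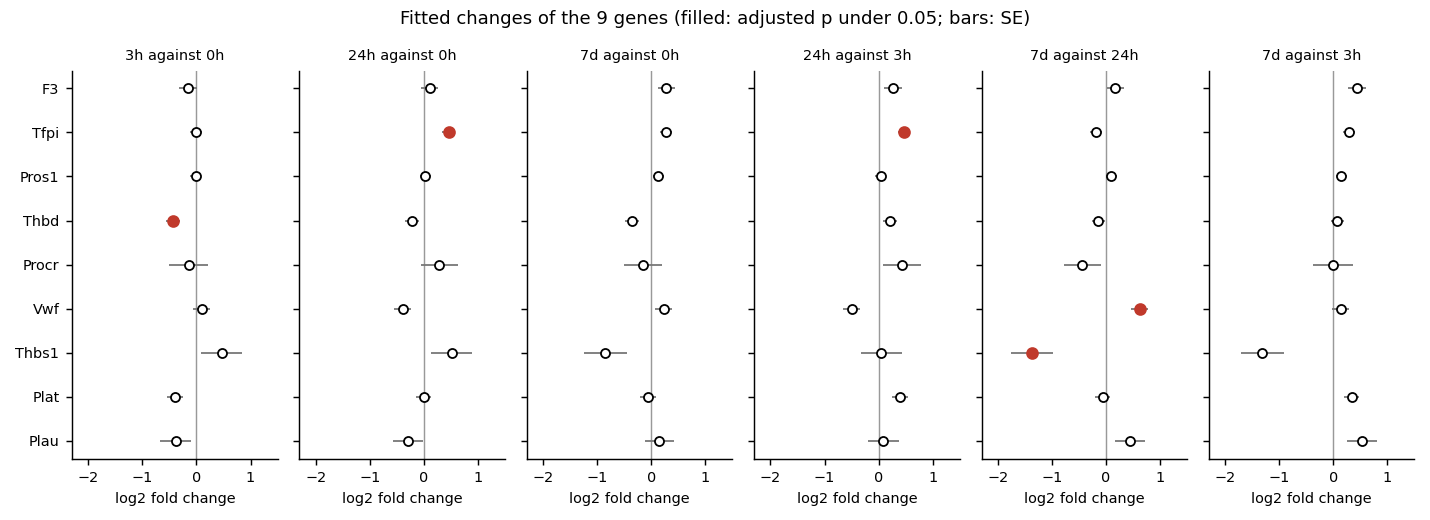
Fitted log2 fold change (x axis) of each gene (y axis) in the 6 comparisons, with bars of 1 standard error. Filled points passed the adjusted threshold: Thbd at 3h against 0h, Tfpi at 24h against 0h and against 3h, and Vwf and Thbs1 at 7d against 24h.

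Tfpi, the inhibitor of the tissue factor complex, was higher at 24h. Its level was 58.1, 58.7, 63.8 and 59.9 TPM in the 0h replicates 1 to 4, and 46.9, 54.5, 57.9 and 51.4 TPM at 3h. At 24h it was 59.0, 68.7, 83.3 and 73.8 TPM, and at 7d 62.5, 78.9, 57.5 and 72.7 TPM. Every 24h library lay above every 3h library, and 24h replicate 1 alone lay within the 0h range. The fit gave a log2 fold change of 0.46 (SE 0.113) at 24h against 0h, with an adjusted p of 0.00775. Against 3h it gave 0.47 (SE 0.113), with an adjusted p of 0.0122. At 3h against 0h the fitted change was -0.011 (SE 0.113): all 3h libraries lay below all 0h libraries in TPM, but by -0.19 on log2(TPM + 1), close to the shift of the median gene. At 7d against 0h the fitted value was 0.27 (SE 0.113, adjusted p 0.246), so the 7d level was not separated from 0h or, at -0.18 (adjusted p 0.349), from 24h. At 7d against 3h it was 0.28 (adjusted p 0.170) and passed in 1 alternative, with the summed endothelial markers as a covariate (0.39, adjusted p 0.0476).

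The 24h rise of Tfpi over 0h depended on the scale. It passed without any 1 of the 8 libraries, with adjusted p from 0.00583 to 0.0392. With limma on log2(TPM + 1) the difference was 0.23, with log2(TPM + 0.1) it was 0.23 with an adjusted p of 0.151, and with the summed endothelial markers as a covariate it was 0.28 with an adjusted p of 0.182. On log2(TPM + 1) the median gene shifted by -0.19 between 0h and 24h. Endothelial markers summed to 933 to 1250 TPM at 0h and to 673 to 994 TPM at 24h. In the fit, their median log2 fold change at 24h against 0h was -0.062. Of the 14 markers 4 passed as lower, beside 8.19% of all genes tested. Per 100 TPM of these markers, Tfpi stood at 5.62 ± 0.741 (SD, n = 4) at 0h, 6.90 ± 0.193 at 3h, 8.54 ± 2.31 at 24h and 7.81 ± 2.28 at 7d. The rise from 3h to 24h passed in all alternatives but one, the fit with the summed atrial markers as a covariate, where it was 0.39 with an adjusted p of 0.0688.

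F3, the trigger of the cascade and the target of Tfpi, did not pass edgeR's test between any times. It ranged from 23.0 to 38.3 TPM at 0h, 18.1 to 28.0 at 3h, 17.4 to 34.6 at 24h and 25.9 to 34.7 at 7d, and all 4 ranges overlap. The highest mean was that of 7d, 31.3 ± 3.80 TPM, and the lowest that of 3h, 21.7 ± 4.52 TPM. That pair gave the widest fitted difference of F3, 0.44 (SE 0.163), with an adjusted p of 0.132. Without the filter on low values it passed, at 0.46 with an adjusted p of 0.0337. The 0h group held 1 library apart, replicate 1 at 38.3 TPM against 23.0 to 24.6 TPM in the others. Without it, F3 at 7d against 0h moved from 0.28 to 0.46, with an adjusted p of 0.241. The ratio of Tfpi to F3 in TPM was 2.28 ± 0.522 at 0h, 2.48 ± 0.381 at 3h, 2.90 ± 0.888 at 24h and 2.21 ± 0.504 at 7d, and these spreads overlap.

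The promoters of this pair, inhibitor and target, are shown because Tfpi carried the steadiest change of the 9, while F3 passed in no comparison with the filter on low values. Each run is the 250 bases before the transcription start, from RefSeq on GRCm38.p6, where 4 of the 9 genes had an entry (F3, Tfpi, Procr and Pros1). F3 lies on the plus strand with its window at chr3:121723287-121723536, and Tfpi on the minus strand at chr2:84476760-84477009, the nearer of 2 starts listed for it. Capitals mark letters that match the AP-1 motif TGANTCA, bound by FOS and JUN proteins, or the CACCC box, bound by Krüppel-like factors, on either strand.
F3: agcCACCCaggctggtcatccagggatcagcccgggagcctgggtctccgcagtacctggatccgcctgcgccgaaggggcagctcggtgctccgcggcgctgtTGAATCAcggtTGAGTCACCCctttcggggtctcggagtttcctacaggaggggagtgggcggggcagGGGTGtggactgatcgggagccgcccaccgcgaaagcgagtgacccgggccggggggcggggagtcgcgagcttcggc
Tfpi: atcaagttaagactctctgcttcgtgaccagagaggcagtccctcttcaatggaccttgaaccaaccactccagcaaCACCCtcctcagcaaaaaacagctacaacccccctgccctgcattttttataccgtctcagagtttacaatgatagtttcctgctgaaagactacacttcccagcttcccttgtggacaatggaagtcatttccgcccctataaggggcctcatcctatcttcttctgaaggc
The F3 window held 2 AP-1 matches and 3 CACCC matches, 1 of which overlaps an AP-1 match. Tfpi held 0 AP-1 matches and 1 CACCC match. Of 32851 promoter windows of this length, 6.75% held an AP-1 match and 52.0% a CACCC match. Guanine and cytosine made up 70.0% of the F3 window and 48.4% of the Tfpi window, beside a median of 52.4% over all windows. These matches describe letters in a window and say nothing of binding.

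Thbd encodes thrombomodulin, the endothelial receptor that redirects thrombin to protein C, and it was lower at 3h. The 0h replicates 1 to 4 held 84.2, 95.4, 102 and 70.1 TPM. At 3h they held 55.6, 57.5, 59.5 and 56.8 TPM, at 24h 61.5, 83.0, 74.1 and 45.0 TPM, and at 7d 74.6, 65.8, 51.8 and 65.4 TPM. All 3h libraries lay below the lowest 0h library and close together, with a coefficient of variation of 2.87%, whereas the 24h and 7d libraries overlapped those of 0h. The mean fell from 87.9 ± 14.0 TPM to 57.4 ± 1.65 TPM, a fitted log2 fold change of -0.43 (SE 0.126) with an adjusted p of 0.0474. At 24h the fitted change against 0h was -0.22 (adjusted p 0.240), and at 7d -0.36 (adjusted p 0.171). For any change over time Thbd lay at the threshold: edgeR gave an adjusted p of 0.0529, whereas DESeq2 (0.0379), edgeR without TMM (0.0376) and edgeR without the filter (0.0203) called it, as did 6 of 16 fits that left out 1 library.

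The 3h call for Thbd sat at the threshold. It was kept without 0h replicate 4 (adjusted p 0.0363) and lost without any other of the 8 libraries, with adjusted p from 0.0780 to 0.154 and log2 values from -0.36 to -0.47. Summed endothelial markers were 697 to 835 TPM at 3h, below every 0h library. These sums are read against a shift of the median gene of -0.15 on log2(TPM + 1). Of the 14 markers 2 (Erg and Kdr) passed the test as lower, beside 536 of 16866 genes tested. The markers did not move together. Pecam1, Tie1, Flt1, Esam and Emcn had fitted values of 0.026 to 0.25, none past the threshold. The other markers had values below 0, and the median of the list was -0.37. Per 100 TPM of these markers Thbd was 8.16 ± 1.24 at 0h and 7.54 ± 0.347 at 3h, and these ranges overlap. With the endothelial sum as a covariate the 3h change was -0.26, with an adjusted p of 0.802, and only 1 of all genes tested still passed. Mesothelial markers were lower at 3h as well, 1.73 to 5.43 TPM against 6.34 to 13.2 TPM at 0h, and with their sum as a covariate the change was -0.47 with an adjusted p of 0.304. Since neither sum overlaps between 3h and 0h, time and these markers cannot be told apart here, nor, in bulk tissue, can fewer cells of a type and less RNA per cell.

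Procr, the receptor that presents protein C to thrombomodulin, stayed between 1.03 and 3.89 TPM in all libraries. Its fitted changes ran from -0.43 to 0.43 with standard errors of 0.348 to 0.367, so a change of that size was not detectable at this depth. Pros1, protein S, was the steadiest of the 9. Its means were 25.6 ± 3.25 TPM at 0h, 22.4 ± 1.96 at 3h, 22.5 ± 1.96 at 24h and 26.3 ± 3.02 at 7d, with overlapping ranges. The fitted changes of Pros1 lay between -0.013 and 0.14 with standard errors of at most 0.103, and none passed. Per 100 TPM of endothelial markers Pros1 stood at 2.25 to 2.52 at 0h and 2.83 to 3.07 at 3h, ranges that do not overlap, unlike its TPM. The marker sum itself does not overlap between these times, so the ratio alone shows no change of Pros1. The 3 genes of the protein C arm thus gave 1 call, that of Thbd.

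Vwf, the platelet tether of the vessel wall, was lowest at 24h and rose from there to 7d. It stood at 20.2, 26.9, 20.3 and 18.5 TPM in the 0h replicates 1 to 4 and at 18.3, 17.3, 24.8 and 20.8 TPM at 3h. The 24h replicates held 10.7, 12.4, 18.7 and 14.7 TPM and the 7d replicates 30.3, 23.8, 21.6 and 19.2 TPM. All 24h libraries lay below all 7d libraries, while 24h replicate 3 reached into the 0h and 3h ranges. The log2 fold change from 24h to 7d was 0.63 (SE 0.158), with an adjusted p of 0.0169. The 24h level differed by -0.49 from 3h (SE 0.158, adjusted p 0.0616) and by -0.39 from 0h (SE 0.158, adjusted p 0.0880), neither past the threshold by edgeR. DESeq2 called the difference from 3h (adjusted p 0.0406). Without TMM edgeR called both, at -0.54 from 3h (adjusted p 0.0410) and -0.51 from 0h (adjusted p 0.0289), and without the filter it called both as well (adjusted p 0.00249 and 0.0181). In order of the mean, 24h (14.1 ± 3.42 TPM) was followed by 3h, 0h and 7d (23.7 ± 4.76 TPM), and edgeR with TMM and the filter separated no neighbours in that order.

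Single libraries moved the calls of Vwf. From 24h to 7d it missed the threshold when 24h replicate 1 was left out (0.55, adjusted p 0.0633), likewise for 24h replicate 2 (0.54, adjusted p 0.0501) and 7d replicate 1 (0.52, adjusted p 0.0593), and in a fit of those 2 groups alone (0.63, adjusted p 0.0625). Without 24h replicate 3, Vwf also passed at 24h against 0h (-0.50, adjusted p 0.0302) and against 3h (-0.60, adjusted p 0.0236). The latter passed as well when 3h replicate 2 was dropped (adjusted p 0.0488), and when 24h replicate 4 was (adjusted p 0.0423). On the TPM scale, limma called Vwf at 24h against 0h, with a difference of -0.58 and an adjusted p of 0.0279. That difference is read against a shift of the median gene of -0.19 on log2(TPM + 1).

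The summed markers of the endocardium, the inner lining of the heart chambers, were lowest at 24h too. Their sum was 53.6 to 62.2 TPM at 3h, 36.3 to 52.5 TPM at 24h and 66.0 to 71.3 TPM at 7d, with no overlap of 24h with either. Of 4 tested markers, Npr3 and Plvap fell from 3h to 24h and rose from 24h to 7d. Npr3, a natriuretic peptide clearance receptor, rose by 0.76 (adjusted p 0.00430) from 24h to 7d, and Plvap, a protein of endothelial diaphragms, by 0.53 (adjusted p 0.0122). The other two did not pass: Nfatc1, a transcription factor of heart valve formation, was lowest at 3h (6.47 ± 1.08 TPM, against 7.75 ± 1.38 at 24h and 8.94 ± 2.04 at 7d), with fitted values of 0.29 from 3h to 24h (adjusted p 0.238) and 0.084 from 24h to 7d (adjusted p 0.783). Most of the sum was Plvap, with 40.5 ± 2.27 TPM at 7d. Megakaryocyte and platelet markers summed to 49.1 to 92.9 TPM at 24h and 87.3 to 121 TPM at 7d. Most of that sum was Pf4, 0 of the 4 tested passed in any comparison by edgeR, with at most 1 at an unadjusted p under 0.05, and Gp1bb had 0 counts in every library. With the summed endothelial markers as a covariate the rise of Vwf from 24h to 7d was 0.66, with an adjusted p of 0.0122. The part of endocardial and platelet RNA in the change of Vwf was not tested.

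Over the 16 libraries, the genes whose log2 CPM (counts scaled by library size) were most like those of Vwf were Gm30866 (Pearson r 0.874), Npr3 (0.866) and Rapsn (0.844). Those most like Tfpi were Nemf (0.933), Myh14 (0.899) and Ttc12 (0.898). The 16 libraries share their groups and scaling factors, so these values are descriptions.

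Thbs1, thrombospondin 1, was lowest at 7d. The 0h replicates 1 to 4 stood at 7.68, 7.19, 8.26 and 5.74 TPM, and the 3h replicates at 12.7, 7.00, 7.85 and 6.98 TPM. At 24h they spread from 3.00 to 13.4 TPM (6.52, 13.4, 3.00 and 12.3), and at 7d they were 3.72, 3.56, 2.75 and 4.95 TPM. Every 7d library lay below every 0h and 3h library, but 24h replicate 3 lay within the 7d range. The fall from 24h to 7d was -1.36 (SE 0.394) with an adjusted p of 0.0495, the largest fitted change of the 9 genes. It passed without 24h replicate 3 (-1.67, adjusted p 2.68e-04) and missed the threshold without any other of the 8 libraries, with adjusted p from 0.0796 to 0.149. With limma on log2(TPM + 1) the difference was -0.90, and with log2(TPM + 0.1) it was -1.02 with an adjusted p of 0.0998.

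At 7d Thbs1 differed by -0.85 from 0h (SE 0.399, adjusted p 0.332) and by -1.31 from 3h (SE 0.395, adjusted p 0.0814). For both, a 2-sided exact permutation test on log2(TPM + 1) reached the smallest p that 4 against 4 libraries allow, 0.0286, unadjusted over 54 such tests. Groups that do not overlap always give that p, so it adds nothing to the separation in TPM stated above. Tfpi at 3h against 0h reached it too, with a fitted change of -0.011. DESeq2 called the comparison with 3h, with -1.33 and an adjusted p of 0.0202. So did edgeR with a variance model that is not robust (adjusted p 0.0219), in a fit of the 7d and 3h groups alone (0.00290) and without the filter (1.45e-12). Against 0h, Thbs1 passed in a fit of the 7d and 0h groups alone (adjusted p 0.0133) and without the filter (1.54e-04). At 24h against 0h the fitted value was 0.52 with an adjusted p of 0.380. Without 24h replicate 3 it was 0.82 and passed, with an adjusted p of 0.0231. Without the filter it also passed (adjusted p 0.0148), though the value stayed at 0.52. All 0h libraries lay within the 24h range, and the exact permutation test gave an unadjusted p of 0.943 for this pair. The small p-values of Thbs1 without the filter are therefore not read as stronger results. At 3h the value was 0.46 against 0h (adjusted p 0.509), and 0.16 without 3h replicate 1, the library at 12.7 TPM. Thbs1 (GRCm38 chr2:118111876-118127133, plus strand) overlaps the antisense noncoding gene Gm29233, which had 0 counts in every library, and none of the other 8 overlaps an annotated gene.

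The plasminogen activators did not pass the test in any comparison. Plat, the activator released by endothelium, stood at 16.1, 12.4, 13.4 and 10.6 TPM at 0h and at 8.32, 9.34, 9.75 and 7.73 TPM at 3h. All 3h libraries of Plat lay below all 0h libraries, yet the fitted change was -0.40 (SE 0.143) with an adjusted p of 0.104. Plat ranged from 9.57 to 13.4 TPM at 24h and from 8.07 to 14.4 TPM at 7d. A fit of the 3h and 0h groups alone called it, with -0.40 and an adjusted p of 0.0122, and at 7d against 3h it passed without 7d replicate 2 (0.47, adjusted p 0.0415; 0.34 and 0.203 with it). Per 100 TPM of endothelial markers Plat was 1.21 ± 0.0666 at 0h and 1.15 ± 0.0910 at 3h. Plau, urokinase, varied more between libraries, from 5.36 to 10.3 TPM at 3h and from 4.20 to 12.7 TPM at 24h, against 7.81 to 14.8 TPM at 0h and 7.48 to 14.1 TPM at 7d. Its widest fitted difference was 0.54 (SE 0.276) at 7d against 3h, with an adjusted p of 0.320.

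**Figure D3:**
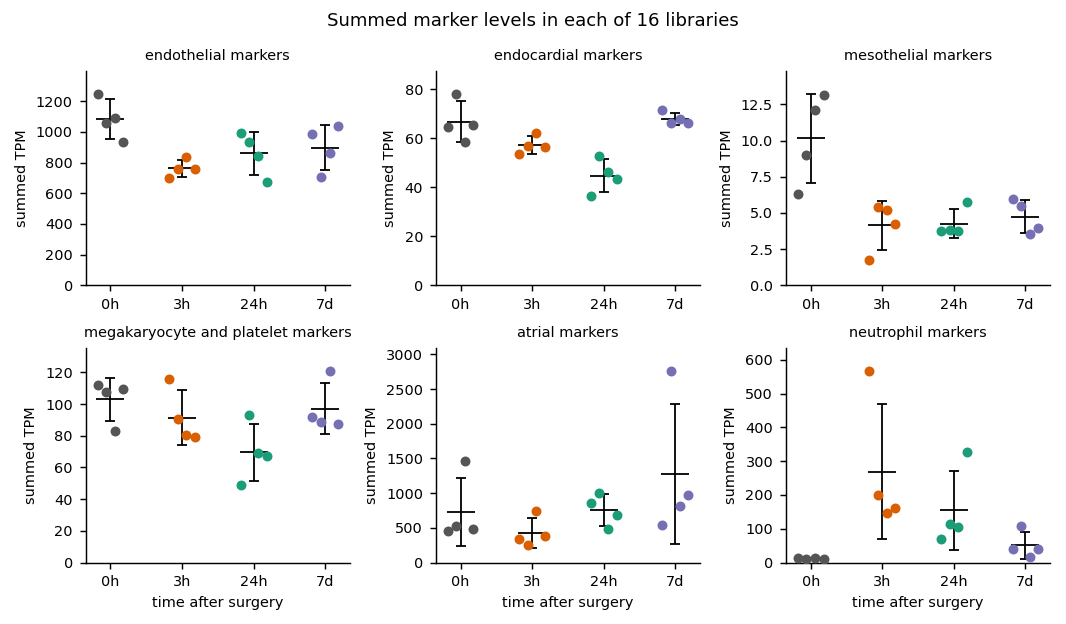
Summed TPM of 6 marker lists (y axis, from 0) by time after surgery (x axis), with points for libraries and the mean ± SD of 4. Endothelial sums are lower at 3h than at 0h, endocardial sums are lowest at 24h, and neutrophil sums are highest at 3h.

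Other genes of the same system were taken from 7 lists of 66 genes in all, of which 39 passed the filter on low values. At 3h against 0h, 2 rose and 2 fell (10.3% of the 39, beside 5.04% of all genes tested). At 24h 5 rose and 2 fell (17.9%, beside 17.4%). At 7d edgeR called 0, beside 0.86%, with 12 at an unadjusted p under 0.05, while DESeq2 called 3 and limma 0. From 3h to 24h 3 rose and 2 fell (12.8%, beside 7.58% of all genes). From 24h to 7d 2 rose and 2 fell (10.3%, beside 8.08%). At 7d against 3h 2 rose and 5 fell (17.9%, beside 4.61%). The median log2 fold changes of the 39 against 0h were 0.075, -0.062 and -0.00097, beside 0.0032, -0.0097 and 0 for all genes tested.

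In the list of von Willebrand factor partners and Weibel-Palade body proteins, Angpt2 and Selp moved in opposite directions. Angpt2, angiopoietin 2, a vessel-destabilizing ligand stored with Vwf, fell from 4.71 ± 0.502 TPM at 0h to 1.41 ± 0.475 TPM at 3h, a log2 fold change of -1.55 (SE 0.280, adjusted p 0.00338). At 24h it was still lower, by -1.06 (adjusted p 0.00859), and at 7d it was 1.17 above 3h (adjusted p 0.0157). Selp, P-selectin, the leukocyte receptor of the same granules, rose from 0.210 ± 0.0262 TPM to 0.844 ± 0.417 TPM at 3h, a change of 2.14 (SE 0.539, adjusted p 0.0227), and by 1.98 at 24h (adjusted p 0.0150). Vwf itself gave 0.10 at 3h (SE 0.157, adjusted p 0.753). Edn1, the vasoconstrictor endothelin 1, rose with Vwf from 24h to 7d, by 0.86 (SE 0.211, adjusted p 0.0129). Angpt2 at 3h and 24h against 0h, and Selp at 24h, passed in 8 of 8 fits without 1 library. Selp at 3h passed in 3 of 8, Angpt2 at 7d against 3h in 4 of 8, and Edn1 missed the threshold without 7d replicate 1 (0.64, adjusted p 0.0638). Selp rests on 12 counts over the 4 libraries of 0h and is also a platelet gene.

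Thbs2, the closest relative of Thbs1 in the lists, rose at 24h from 14.0 ± 2.37 to 24.2 ± 3.67 TPM, a change of 1.03 (SE 0.220, adjusted p 0.00522). The thrombospondin receptors Cd36 and Cd47 rose at 24h as well. Cd36, also the fatty acid transporter of heart muscle, rose by 0.53 (adjusted p 0.00453) and fell by 0.57 from 24h to 7d (adjusted p 0.00428). Cd47 rose by 0.57 at 24h (adjusted p 0.00388). Comp, another thrombospondin, rose from 24h to 7d by 0.97 (adjusted p 0.00854), when Thbs1 fell. Of the 6 genes of this list 3 were called higher at 24h against 0h and 0 lower, beside 9.2% and 8.19% of all genes tested, and nothing is read from so few. All 3 passed in 8 of 8 fits without 1 library, but with the endothelial covariate Thbs2 and Cd47 missed the threshold (adjusted p 0.0617 and 0.0749), and with limma on log2(TPM + 1) Cd36 did.

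Among receptors and fibrinolysis genes, F2r, the main thrombin receptor, was lower at 24h, by -0.37 (adjusted p 0.0156), with 44.4 ± 6.46 TPM at 0h and 29.6 ± 2.42 TPM at 24h. Lrp1, the receptor that clears plasminogen activators, fell at 3h from 28.7 ± 5.15 to 18.2 ± 1.19 TPM, a change of -0.47 (adjusted p 0.0358), and was 0.52 higher at 7d than at 3h (adjusted p 0.0181). F2r missed the threshold without 0h replicate 1 (adjusted p 0.0643), and Lrp1 passed in 1 of 8 fits without 1 library at 3h and in 3 of 8 at 7d against 3h. With the endothelial or the mesothelial sum as a covariate, Angpt2, Selp, F2r and Lrp1 missed the threshold in each of their comparisons with 0h, and with limma on log2(TPM + 1) Selp and Lrp1 did. Few of all genes tested still passed with either covariate at 3h against 0h, so a miss there says little of a single gene. None of the 3 tested coagulation inhibitors of the lists passed in any comparison by edgeR, with 0 to 2 at an unadjusted p under 0.05. Of the 7 endothelial antithrombotic genes and KLF factors, 0 passed against 0h at any time by edgeR, with 4 at an unadjusted p under 0.05 at 3h. Against 3h, Nt5e was lower at 24h, by -1.43 (adjusted p 0.0492), beside 3.56% of all genes called lower. At 7d 3 of the 7 were lower than at 3h, beside 2.67%: Nt5e, which makes adenosine, by -1.53 (adjusted p 0.0476), Klf15 by -1.13 (0.0438) and Entpd1, which degrades ATP and ADP, by -0.60 (0.0431). These calls passed in 0 to 2 of 8 fits without 1 library.

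Fgg, the fibrinogen gamma chain made by liver, was counted at 3h and hardly elsewhere. So were the other fibrinogen chains, with 85 counts at 3h for Fga and 85 for Fgb, and at most 2 at any other time. Fga missed the threshold at 3h against 0h (5.23, adjusted p 0.0945 by edgeR), and Fgb did not pass the filter on low values. For Fgg the 3h replicates 1 to 4 gave 2, 34, 21 and 4 counts, 61 in sum, and the 0h libraries 0. Its means were 0 TPM at 0h, 2.29 at 3h, 0.108 at 24h and 0.0298 at 7d. Fgg thus passed the filter on low values only through its 3h libraries, and its calls are given as descriptions. Setting 0h to a floor of 3 counts for the group, Fgg was at least 21.6-fold higher at 3h, with an adjusted p of 0.00571 by edgeR. Without 3h replicate 2 the bound was 12.6-fold and the adjusted p 0.0180, so the size rests largely on replicates 2 and 3. The 3h level was 22.1 times that of 24h (3 counts, 95% counting interval 7.23 to 110) and 77.5 times that of 7d (1 count, interval 13.4 to 3110). These bounds cover counting error only. Hepatocyte markers were higher at 3h too, 18.5 to 98.8 TPM against 5.34 to 11.1 TPM at 0h. Of 7 tested, 5 rose, beside 314 of 16866 genes tested. Among them Alb averaged 17.4 TPM at 3h and at most 0.269 TPM at the other times, so it too was tested only through 3h. The part of liver RNA in the Fgg counts was not tested.

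**Figure D4:**
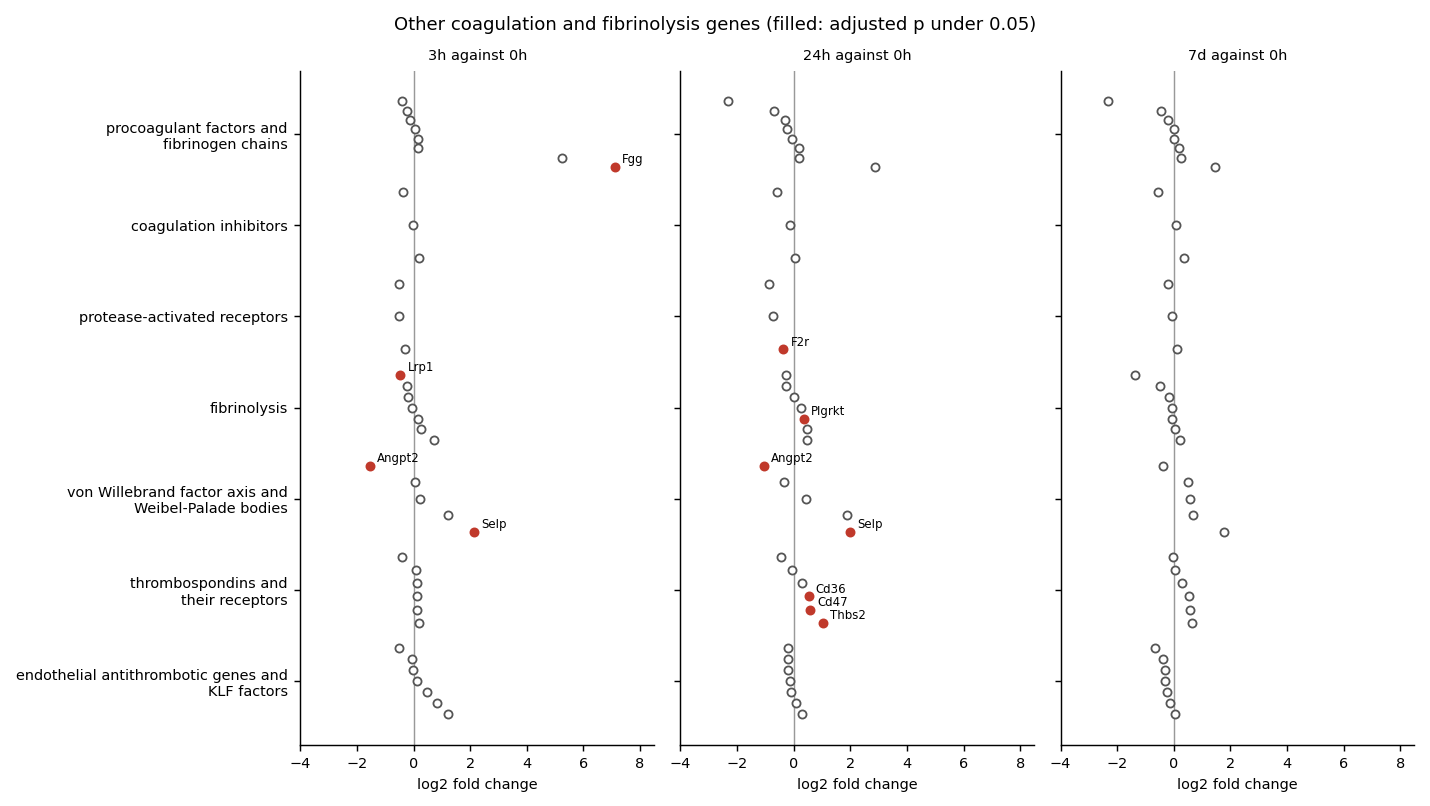
Fitted log2 fold change (x axis) of the 39 other tested genes, grouped by list (y axis), at 3h, 24h and 7d against 0h. Filled and named points passed the adjusted threshold; the position of Fgg at 3h depends on the prior count, since 0h had 0 counts.

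The plot of adjusted p under each setting shows which of the 5 calls held. Tfpi at 24h against 0h passed in 8 of 8 fits without 1 library and in 11 of 14 other alternatives, and at 24h against 3h in 8 of 8 and 13 of 14. Vwf at 7d against 24h passed in 5 of 8 and 13 of 14. Thbd at 3h passed in 1 of 8 and 8 of 14, and Thbs1 at 7d against 24h in 1 of 8 and 7 of 14. All 5 kept their direction in each of these fits.

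**Figure D5:**
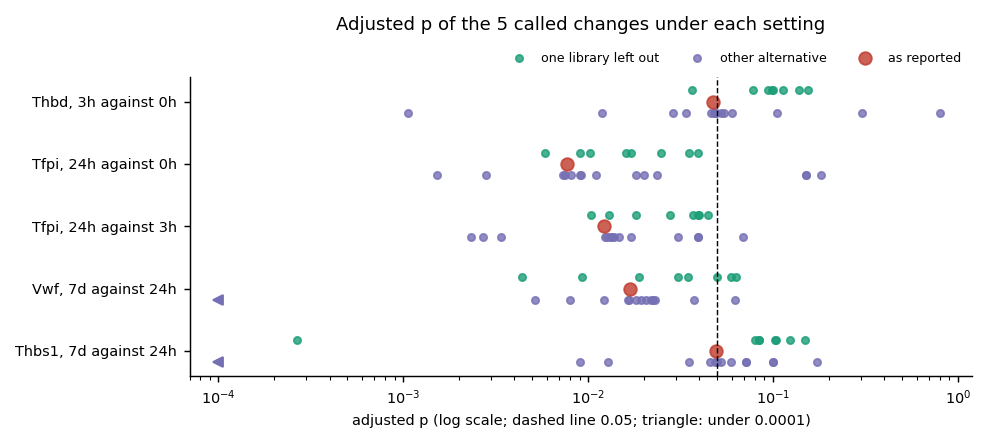
Adjusted p (x axis, log scale) of the 5 calls (y axis) as reported, without 1 library at a time, and under the other alternatives; the dashed line is 0.05. Both Tfpi rows lie left of the line in every fit without 1 library, while Thbd and Thbs1 cross it in 7 of 8.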

How the data were processed

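In the 1 table the authors deposited, each library has raw counts and TPM, and FPKM that were not used here. TRIzol extraction and a directional NEBNext kit are named, per the labels' protocols. The tools cutadapt and STAR and the build mm10 are named, per the submitters' processing notes, without versions. How reads were counted, and on which strand, is not stated there. Columns were matched to libraries by time and number because names and sample titles begin differently, and 0 columns of counts or TPM were left unmatched.

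Deposited counts were tested with edgeR 4.0.16 (R 4.3.3; glmQLFit robust, TMM, 16 libraries in 1 fit, no replicate block) on genes with a mean deposited TPM of at least 0.5. DESeq2 1.42.0, limma 3.58.1, other scalings, filters and variance models, a replicate block, marker covariates and leaving out each library were the alternatives. The atrial covariate, another edgeR deviance setting and the alternatives for the listed genes were added after seeing the data. The fits were tested on simulated data. Coordinates come from GENCODE M21 (GRCm38).

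The 9 genes and the gene lists were chosen with earlier results of these data known. Of the lists, at most the 6 genes of smallest p against 0h and the 3 in each other comparison are named with values. Up to 3 genes per marker list are named, and more of the endothelial list. Gp1bb, Pf4, Gm29233, Nt5e, Klf15, Entpd1, Fga, Fgb and Alb are named after their values were seen, as are Myl7, Myl4 and Sln. So are Pecam1, Tie1, Flt1, Esam and Emcn. The most similar genes are the 3 of highest Pearson r on log2 CPM (prior count 2). No 2 libraries agreed within sampling noise.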

Additional observations from a re-analysis of the deposited data

Results flagged for a closer look

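In 2 of 36 groups of 4 libraries (9 genes at 4 times), 1 library stood apart from the other 3 by Dixon's criterion; chance alone gives about 1 in 20. F3 was at 38.3 TPM in 0h replicate 1, against 23.0 to 24.6 TPM in the other 0h libraries. Thbs1 was at 12.7 TPM in 3h replicate 1, against 6.98 to 7.85 TPM in the other 3h libraries. The latter library also had the highest neutrophil marker sum of all 16, 567 TPM; whether that bears on Thbs1 was not tested.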

How the results depend on the processing

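Of the log2 values of the 9 genes under all alternatives, 1091 kept direction and side of the threshold, 37 lost the call, 27 gained one and 87 changed sign, the largest of these 0.27 in size. These numbers include the permutation tests, which were held to an unadjusted p under 0.05, whereas the fits were held to an adjusted p. The counts of all genes called depended more on the setting. At 3h against 0h 850 became 1415 by DESeq2, 1786 without the filter, 3224 in a fit of those groups alone, 1 with the endothelial and 111 with the mesothelial covariate. At 24h against 0h 2933 became 869 and 935 with these covariates. At 7d against 0h 145 ranged from 4 with the mesothelial covariate to 735 without the filter. Over all alternatives the count ran from 715 to 1846 at 24h against 3h (1279 as reported), from 354 to 2407 at 7d against 24h (1363), from 444 to 1458 at 7d against 3h (778) and from 2052 to 4725 for any change (3402). The cause of these moves was not tested. Same-numbered libraries of different groups did not deviate together: in 24 pairs r ran from -0.12 to 0.055, 0 of 16 libraries matched their own number best, and the replicate block is given as an alternative only; with it Thbd at 3h gave -0.42 (adjusted p 0.0600) and Thbs1 at 7d against 24h -1.31 (adjusted p 0.0720). Procr, at 7 to 30 counts, limits what depth can show.

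The counts of the 9 genes called moved under these alternatives. By DESeq2 they were 2 (24h against 3h), 1 (7d against 3h) and 4 (any change). Without TMM they were 2 (24h against 0h), 2 (24h against 3h) and 1 (7d against 24h). With median-of-ratios scaling they were 0 (3h against 0h). Without the filter they were 3 (24h against 0h), 1 (7d against 0h), 2 (24h against 3h), 2 (7d against 3h) and 4 (any change). With a variance model that is not robust they were 0 (3h against 0h) and 1 (7d against 3h). In fits of the compared groups alone they were 2 (3h against 0h), 1 (7d against 0h), 0 (7d against 24h) and 1 (7d against 3h). With the replicate block they were 0 (3h against 0h), 1 (7d against 24h) and 1 (any change). With limma on log2(TPM + 1) they were 1 (7d against 24h). With limma on log2(TPM + 0.1) they were 1 (7d against 24h). With the endothelial covariate they were 0 (3h against 0h), 0 (24h against 0h), 1 (7d against 24h) and 1 (7d against 3h). With the mesothelial covariate they were 0 (3h against 0h) and 1 (7d against 24h). With the atrial covariate they were 0 (3h against 0h) and 0 (24h against 3h). Leaving out 1 library at a time gave 0 to 1 (3h against 0h), 1 to 3 (24h against 0h), 1 to 4 (any change), 1 to 2 (24h against 3h), 0 to 1 (7d against 3h) and 0 to 2 (7d against 24h).

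Log2 values that changed sign passed the threshold in neither fit. By DESeq2 they were Plat 0.010 (24h against 0h). Without TMM they were F3 -0.00043 (24h against 0h), Pros1 -0.080 (24h against 0h), Plat 0.0030 (7d against 24h) and Procr 0.020 (7d against 3h). With median-of-ratios scaling they were Plat 0.011 (24h against 0h). Without the filter they were Plat 0.0018 (24h against 0h) and Procr 0.013 (7d against 3h). With filterByExpr they were Plat 0.0031 (24h against 0h). With the replicate block they were Plat 0.0048 (24h against 0h) and Thbs1 -0.016 (24h against 3h). With limma on log2(TPM + 1) they were Vwf -0.075 (3h against 0h), F3 -0.098 (24h against 0h), Pros1 -0.17 (24h against 0h), Plau -0.018 (24h against 3h), Thbs1 -0.11 (24h against 3h), Plat 0.042 (7d against 24h) and Procr 0.00058 (7d against 3h). With limma on log2(TPM + 0.1) they were Vwf -0.079 (3h against 0h), F3 -0.10 (24h against 0h), Pros1 -0.18 (24h against 0h), Plau -0.030 (24h against 3h), Thbs1 -0.14 (24h against 3h) and Plat 0.043 (7d against 24h). With the endothelial covariate they were Plau 0.27 (3h against 0h), 0.091 (24h against 0h) and -0.18 (24h against 3h), F3 0.00053 (3h against 0h), Procr 0.036 (3h against 0h), Pros1 0.18 (3h against 0h) and -0.021 (24h against 3h), Vwf -0.10 (3h against 0h) and Plat 0.21 (24h against 0h) and 0.099 (7d against 0h). With the mesothelial covariate they were Tfpi 0.19 (3h against 0h), F3 -0.044 (24h against 0h), Procr -0.23 (24h against 0h) and 0.088 (7d against 3h), Pros1 -0.072 (24h against 0h) and Plau -0.0070 (7d against 0h). With the atrial covariate they were Tfpi 0.054 (3h against 0h), Plat 0.019 (24h against 0h) and 0.0011 (7d against 0h), Thbs1 -0.12 (24h against 3h) and Thbd -0.033 (7d against 3h). With the other edgeR deviance setting they were Procr 0.0040 (7d against 3h). As the plain difference of log2(TPM + 1) they were Vwf -0.075 (3h against 0h), F3 -0.098 (24h against 0h), Pros1 -0.17 (24h against 0h), Plau -0.018 (24h against 3h), Thbs1 -0.11 (24h against 3h), Plat 0.042 (7d against 24h) and Procr 0.00058 (7d against 3h). Without 1 library at a time the log2 values that changed sign ran as follows. F3 ran from -0.28 to 0.014 (3h against 0h) and from -0.019 to 0.28 (24h against 0h). Tfpi ran from -0.050 to 0.011 (3h against 0h). Procr ran from -0.26 to 0.083 (3h against 0h), from -0.44 to 0.081 (7d against 0h) and from -0.30 to 0.22 (7d against 3h). Pros1 ran from -0.062 to 0.037 (3h against 0h), from -0.020 to 0.079 (24h against 0h) and from -0.00087 to 0.078 (24h against 3h). Plat ran from -0.072 to 0.088 (24h against 0h), from -0.16 to 0.071 (7d against 0h) and from -0.16 to 0.073 (7d against 24h). Plau ran from -0.15 to 0.26 (24h against 3h). Thbs1 ran from -0.23 to 0.35 (24h against 3h).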
